A study of Mus musculus with 8 samples.

Results

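The epidermal growth factor (EGF) receptor family was measured in AML12 cells through 10 genes. They are the receptors Egfr, Erbb2 and Erbb3, the ligands Tgfa, Areg, Ereg, Hbegf, Btc and Egf, and Errfi1, an inhibitor of the activated receptors. All probes whose accession the RefSeq gene table gives to these genes were taken, 12 probes in all, 3 for Egfr and 1 for each other gene. The array holds 39429 probes that are not controls, of which 28657 (72.7%) could be named, for 21608 gene symbols.

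AML12 is a hepatocyte line derived from the liver of a mouse that carries a transgene for human TGF-alpha, itself a ligand of the EGF receptor. Whether the mouse Tgfa probe also reads the transgene was not tested. The cells were grown in DMEM F-12 medium with 10% fetal bovine serum and received either no irisin (control, 4 samples) or 0.5 µg/ml irisin for 24 h (irisin, 4 samples). Irisin is the secreted peptide cleaved from the membrane protein Fndc5, and the comparison asks which transcripts differ after it is added. The control and the irisin samples carry the same line and the same serum, which itself holds growth factors.

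Ligands of this family are made as membrane-bound precursors and are released by metalloproteases at the cell surface. A bound ligand brings receptors together in pairs, which then phosphorylate each other and start the RAS-ERK and PI3K pathways. Erbb2 binds no known ligand and acts as a partner, Erbb3 has little kinase activity of its own, and Errfi1, which ERK signaling induces, binds the active kinase and shuts it off. In the liver Egfr is abundant on hepatocytes, and its ligands support their growth after injury.

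Each sample was hybridized to its own one-color array. The 75th percentile of the signal was 372 to 534 on the control arrays and 682 to 850 on the irisin arrays, so each value was divided by that percentile and given as a log2 (relative log2 signal). The control arrays lay on 1 slide and the irisin arrays on another, each with its own scan, so an effect of slide or scan and one of treatment cannot be told apart. Of 8 hepatocyte markers 7 had a probe, and all 7, Alb, Ttr and Hnf4a among them, were well above background on all 8 arrays. Their summed signal was 137198 to 180999 on the control arrays and 219786 to 239925 on the irisin arrays. Of the 4 markers each of other liver cells, those well above background on all 8 arrays were 3 for cholangiocytes (summed signal of the list 16552 to 26876 on the control and 32688 to 37529 on the irisin arrays), 1 for stellate cells (14.3 to 20.4 and 24.0 to 27.6), 2 for macrophages (196 to 315 and 358 to 395) and 2 for endothelial cells (280 to 415 and 328 to 469). Pdgfrb, Des and Lrat of the stellate list and Cdh5 of the endothelial list did not stand well above background on any array. By the brightest probe of each gene Pecam1 was called lower with irisin, with a change of -0.61, as were 10.2% of all tested genes, and no other marker was called. Kdr (-0.56), Csf1r (-0.49) and Krt18 (-0.47) had an adjusted p under 0.05 in limma with a change under 1.5-fold, and a dimmer probe of Csf1r was called lower (-0.74). The part of other cells in the results was not tested.

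Betacellulin (Btc), a ligand of both Egfr and Erbb4, was higher after irisin and was the single member that passed the test. The other 5 ligands, both measured receptors and Errfi1 did not pass it. The test in limma took in 24092 probes, those that stood well above background throughout the control group or throughout the irisin group. A probe was called when its change was at least 1.5-fold with an adjusted p under 0.05. Of the 12 member probes, 11 were tested, each well above background on all 8 arrays. Among them 1 was called higher, where 0.714% of all tested probes were, and 0 were called lower, where 11.7% of all tested probes were. RNA was taken from whole cultures, in which a transcript made by fewer cells and one made at a lower level per cell cannot be told apart. Only the Btc probe of the 11 had an unadjusted p under 0.05, which 6.45% of all tested probes reached as higher and 27.8% as lower. The median change of the 11 probes was 0.08 on the log2 scale, with 9 above 0, all Egfr probes among them. That of all tested probes was -0.08, with 8390 of 24092 above 0. The median of all tested probes also depended on signal. The tested probes were put in 10 equal bins by signal, numbered from the dim end. In bins 4 to 9, which held all tested member probes but those of Egf and Errfi1, the median change of a bin was -0.0544 to 0.0021. Egf lay in bin 2, where the median change was -0.33, and Errfi1 in bin 10, where it was -0.20.

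**Figure D1:**
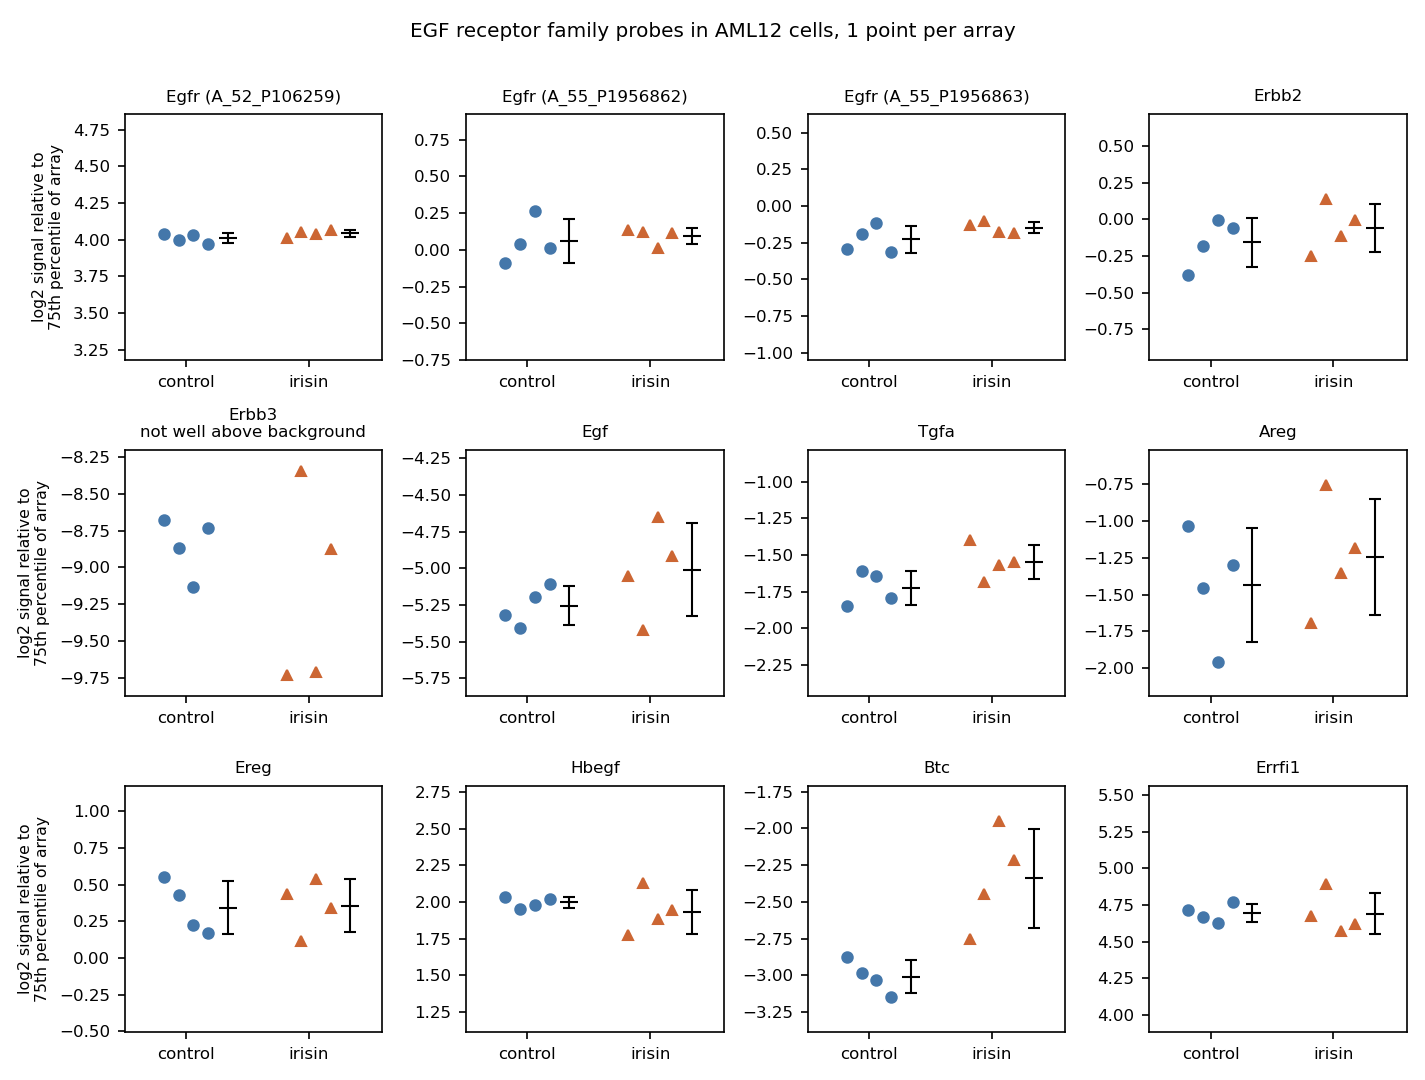
Relative log2 signal (log2 signal minus that of the 75th percentile of the array) of the 12 member probes, with circles for the 4 control arrays, triangles for the 4 irisin arrays in the order of their replicate numbers, and bars for the mean and SD of each tested probe. Each panel has its own axis, and levels cannot be compared between panels. The 4 irisin arrays lie above the 4 control arrays for Btc, and the groups overlap for the other 10 tested probes.

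Egfr, the receptor that binds most of the ligands measured here, was measured by 3 probes. Probe A_52_P106259, which has 10 spots on each array and the smallest spread of the tested member probes, gave signals of 6121, 7764, 8751 and 7780 on the control arrays and 12827, 11307, 13239 and 14256 on the irisin arrays. Once scaled to the 75th percentile the arrays could hardly be separated, with a relative log2 signal of 4.01 ± 0.03 (SD, n = 4) in control and 4.04 ± 0.02 (SD, n = 4) in irisin cells. The change was 0.03 with a 95% confidence interval of -0.12 to 0.19 (adjusted p = 0.806 in limma), that is 1.02-fold with an interval of 0.917 to 1.14. The spread of this probe between arrays of a group was at percentile 0.0623 of all tested probes, and that of the single-spot probes A_55_P1956862 and A_55_P1956863 at 25.5 and 4.11.

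Whether the other Egfr probes read the same transcripts of the gene as A_52_P106259 was not tested. Probe A_55_P1956862 changed by 0.04 (-0.16 to 0.24) and probe A_55_P1956863 by 0.08 (-0.10 to 0.25), with adjusted p of 0.816 and 0.542 in limma. The groups overlapped for all 3 Egfr probes, and each interval included 0.

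The genes most like the bright Egfr probe over the 8 arrays, after each was centred on its own mean, were Fam114a1, Ticrr and Nr4a1. Their root mean square differences from it were 0.01, 0.03 and 0.03 on the log2 scale, where the median over 14252 genes was 0.16. None of these genes was called, with changes of 0.02, 0.02 and 0.06. Being chosen for their likeness to a probe that hardly changed, these genes had to change little too.

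Erbb2, the partner receptor, gave signals of 286 to 531 on the control arrays and 670 to 846 on the irisin arrays, as means of its 10 spots. Relative to the 75th percentile it was -0.16 ± 0.17 (SD, n = 4) in control and -0.06 ± 0.16 (SD, n = 4) in irisin cells. The change of 0.10 (-0.15 to 0.35) was smaller than the spread between arrays (adjusted p = 0.605 in limma).

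Erbb3 was not well above background on any of the 8 arrays. Its signal was 0.910 to 2.10, below the lowest signal called well above background on each array, which was 4.21 to 4.73. Erbb4, the remaining receptor of the family, was likewise not well above background on any array at either of its probes. No change can be given for Erbb3 or Erbb4.

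Among the ligands the Btc signal was 50.7, 61.4, 65.2 and 56.1 on the control arrays and 118, 125, 208 and 183 on the irisin arrays. Since the irisin arrays were brighter throughout, the comparison rests on the scaled values. These were -2.87, -2.98, -3.03 and -3.15 in the control samples and -2.75, -2.45, -1.95 and -2.22 in the irisin samples. Every irisin sample lay above every control sample, with irisin replicate 1 close to control replicate 1 and irisin replicate 3 highest.

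The means were -3.01 ± 0.11 (SD, n = 4) in control and -2.34 ± 0.34 (SD, n = 4) in irisin cells. The change was 0.67 with an SE of 0.15 on the log2 scale, that is 1.59-fold with a 95% confidence interval of 1.26 to 2.01 (adjusted p = 0.00811 in limma). It ranked 144 of the 24092 tested probes by increase. The exact two-sided permutation test gave p = 0.0286, the smallest that 4 arrays against 4 allow. By the methods' test, which uses the spread of each probe alone, Btc was called with an adjusted p of 0.0464, close to the 0.05 threshold. Among all tested probes 4.17% had every irisin value above every control value and 22.9% every irisin value below. When the tested probes were put in 10 equal bins by signal, Btc fell in the fourth from the dim end, in which 1.29% of probes were called higher and 8.92% lower.

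Btc has 1 probe with 1 spot on each array, so no second measurement of it exists on these arrays. Without irisin replicate 3 the change was 0.54, under 1.5-fold (adjusted p = 0.0172 in limma), and with background correction by normexp, a model that estimates background from all spots, it was 0.70 with an adjusted p of 0.212. Irisin replicate 3 also had the lowest spike-in signal of the irisin arrays, 11.32 on the log2 scale where the others had 11.72 to 12.05 and the control arrays 11.38 to 11.82. Its part in the change of Btc was not tested. The normexp model gave irisin replicates 2 and 4 a background mean of -306 and -395, and the other 6 arrays -8.06 to -10.7. Those 2 arrays held 8 and 5 spots whose signal lay more than 30 below their local background, and no other array held any. With these spots left out of the model, a setting chosen after seeing the data, the change of Btc was 0.32, under 1.5-fold, with an adjusted p of 0.0344.

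**Figure D2:**
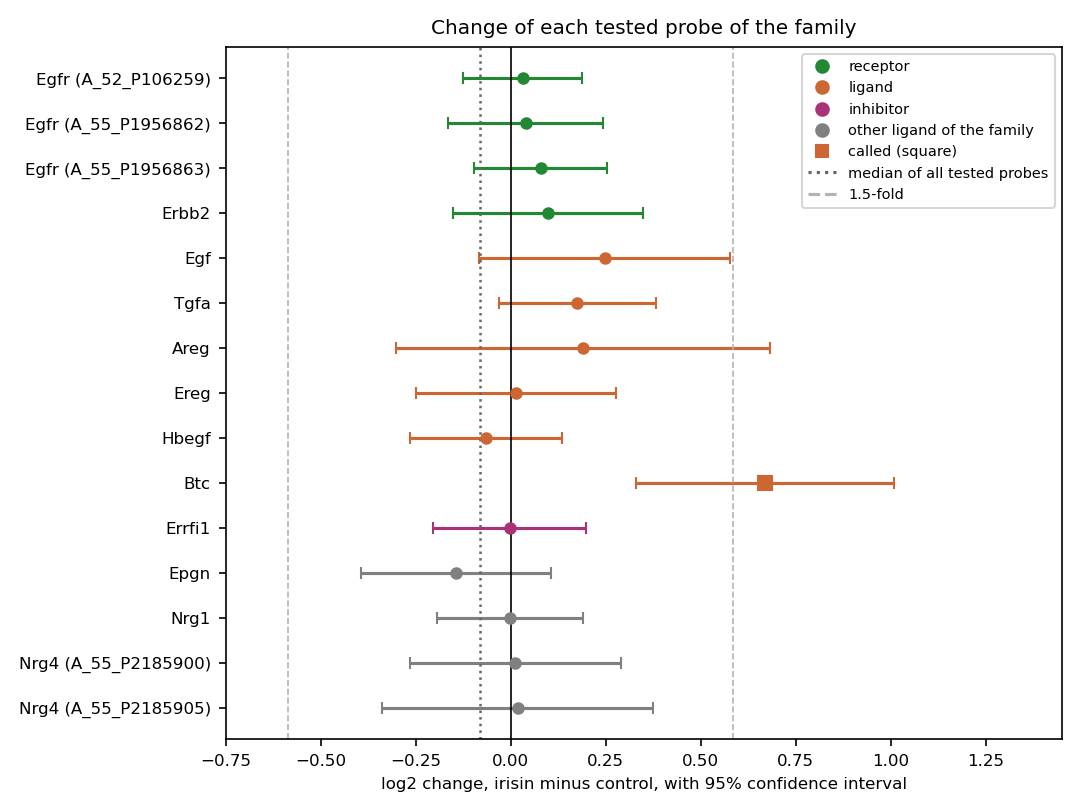
Change of each tested probe of the family on the log2 scale, irisin minus control, with its 95% confidence interval from limma over 4 control and 4 irisin arrays. Green marks receptors, orange ligands, purple the inhibitor and grey other ligands. The interval of Btc lies between 0.33 and 1.01 and does not include 0, while the intervals of all other probes shown include it.

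The Btc probe was also set against each other member on the same array, which removes any single scaling factor of an array. These ratios were chosen after seeing the data, with Btc picked for its call, and are a description with no test. Each mean difference is the change of Btc less that of the other member. Btc had the largest change of the members, so every mean ratio had to be higher in irisin cells, which adds no evidence. The log2 ratio of Btc to the other 10 tested member probes was higher in irisin cells for every one of them, by 0.42 against Egf to 0.73 against Hbegf. Irisin and control samples did not overlap for the ratios to the bright Egfr probe, Ereg, Hbegf and Errfi1, and overlapped for the others. Processing that treats bright and dim probes differently moved these ratios. Each stayed higher in irisin cells, as it must while Btc has the largest change of the members. The range over the 10 probes was 0.14 to 0.79 with quantile normalization and with cyclic loess, lowest against Egf in both. The ratio to Errfi1 then overlapped, as did that to the bright Egfr probe with quantile normalization. In both settings the ratio to Egfr probe A_55_P1956863 did not overlap, and with cyclic loess neither did that to Erbb2. It was 0.13 to 0.94 with normexp, where all ratios overlapped, and 0.17 to 0.69 with the added normexp setting, where all but that to Egf did and the difference against the bright Egfr probe was 0.29. Against the bright Egfr probe the ratio was -7.02 ± 0.09 (SD, n = 4) in control and -6.38 ± 0.33 (SD, n = 4) in irisin cells, values that depend on both probes' brightness and of which only the difference is used.

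**Figure D3:**
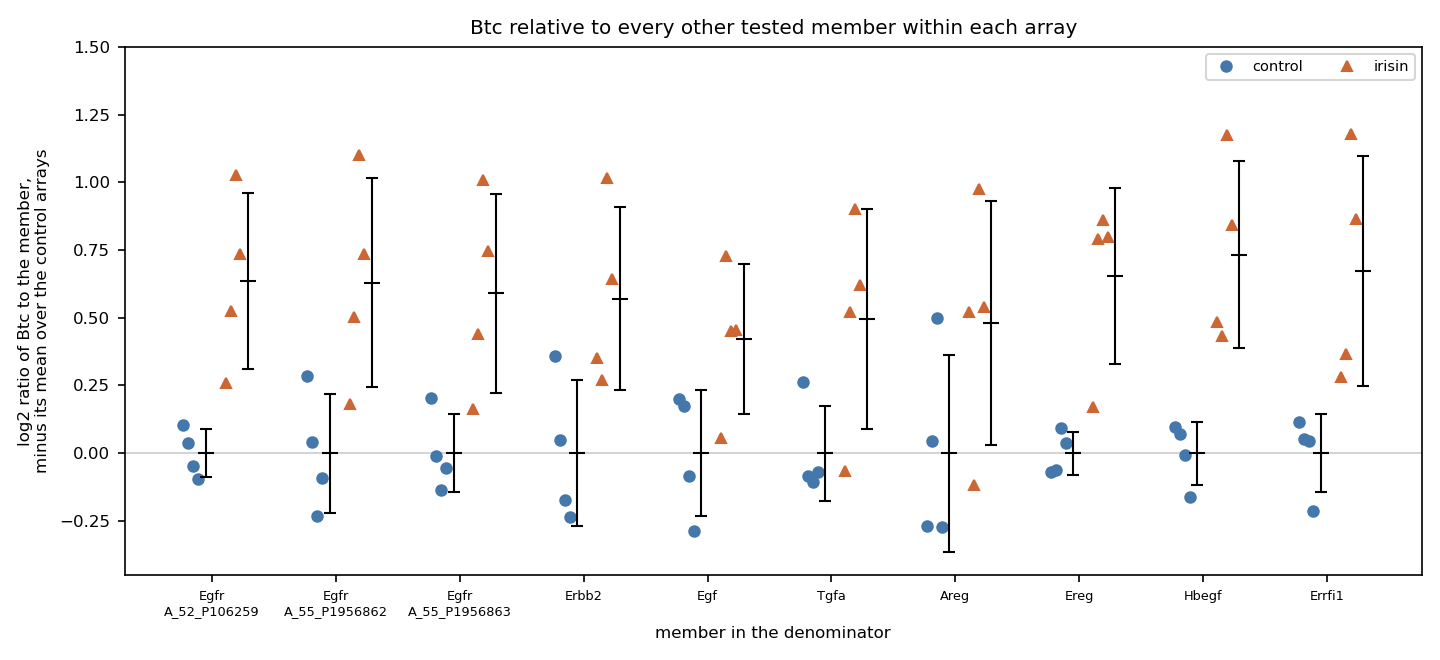
Log2 ratio of the Btc probe to each other tested member probe on the same array, minus its mean over the control arrays, with circles for control, triangles for irisin and bars for the mean and SD of 4 arrays. The irisin mean lies above the control mean in each case, by 0.42 to 0.73, as it must because Btc has the largest change of the members.

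The genes most like Btc over the 8 arrays were Mrgprb2, Sec24d and Pgm2. Their root mean square differences from it were 0.12, 0.13 and 0.13 on the log2 scale, where the median over 14252 genes was 0.46. Mrgprb2 and Pgm2 were called higher, with changes of 0.71 and 0.61. Sec24d changed by 0.49, below 1.5-fold. Being chosen for their likeness to Btc, these genes had to move as it did.

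Btc lies on chromosome 5 in a row of ligand genes of this family, in the order Epgn, Ereg, Areg and Btc. The neighbours did not pass the test. Epgn changed by -0.14 (adjusted p = 0.424 in limma), Ereg by 0.01 (0.954) and Areg by 0.19 (0.614). Of these neighbours, Btc had the largest change and Areg the widest spread among the members, and no promoter sequence of Ereg or Epgn was used. The 250 bases before the transcription start of Btc and of Areg are shown. They come from RefSeq on GRCm38.p6, Btc at chr5:91402995-91403244 on the minus strand and Areg at chr5:91139349-91139598 on the plus strand, each printed 5′ to 3′ along the gene. Capitals mark matches to 6 promoter motifs searched on both strands, namely the CCAAT box by its own letters, GGGCGG for the GC box, TATAAA for the TATA box, TGACTCA for AP-1, TGACGTCA for the cAMP response element (CRE) and CACGTG for the E-box. The motifs share letters in part, but no match shown overlaps another.
Btc: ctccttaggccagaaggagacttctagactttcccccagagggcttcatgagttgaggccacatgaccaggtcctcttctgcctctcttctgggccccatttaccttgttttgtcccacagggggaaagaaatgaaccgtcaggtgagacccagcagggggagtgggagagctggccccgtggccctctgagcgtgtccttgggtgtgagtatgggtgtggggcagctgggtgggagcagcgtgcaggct
Areg: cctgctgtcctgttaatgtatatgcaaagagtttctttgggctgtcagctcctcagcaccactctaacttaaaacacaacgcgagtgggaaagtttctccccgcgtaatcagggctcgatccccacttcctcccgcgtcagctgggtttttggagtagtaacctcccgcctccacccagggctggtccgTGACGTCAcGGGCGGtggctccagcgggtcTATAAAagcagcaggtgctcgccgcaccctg
The Areg window held a CRE at -61, a GC box at -52 and a TATA box at -31, counted in bases from the start site. Of 32851 promoter windows of this length, 1.55% held a CRE, 32.7% a GC box and 12.4% a TATA box. The Btc window held none of the 6 motifs. Among the 7 members with a window, a CRE was also found before a start site of Errfi1. A match is a description of the letters and not of a bound site.

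Amphiregulin (Areg), a ligand of Egfr, had the widest spread of the members. Its signal was 182, 177, 138 and 202 on the control arrays and 246, 405, 315 and 375 on the irisin arrays. The relative log2 signal ran from -1.96 to -1.03 in control and from -1.70 to -0.75 in irisin cells, so the groups overlapped over most of their range. The means were -1.44 ± 0.39 (SD, n = 4) and -1.25 ± 0.39 (SD, n = 4). The change of 0.19 had a 95% confidence interval of -0.30 to 0.68, which takes in both no change and 1.5-fold. It was 0.02 without control replicate 3, 0.03 without irisin replicate 2 and 0.34 without irisin replicate 1, and was not called in any of these. The spread of Areg was at percentile 95.7 of all tested probes.

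Tgfa, the mouse gene of the ligand that the transgene of this line encodes, gave signals of 103, 159, 171 and 143 on the control arrays and 302, 212, 271 and 290 on the irisin arrays. Scaled, it was -1.72 ± 0.12 (SD, n = 4) in control and -1.55 ± 0.12 (SD, n = 4) in irisin cells. The groups overlapped through irisin replicate 2, which lay below the highest control sample. The change was 0.17 with a 95% confidence interval of -0.03 to 0.38 (adjusted p = 0.221 in limma, exact two-sided permutation p = 0.0857).

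Egf was the dimmest member that could be tested. Its signal was 9.31, 11.5, 14.6 and 14.4 on the control arrays and 24.0, 16.0, 32.0 and 28.1 on the irisin arrays, as means of its 10 spots. The relative log2 signal was -5.26 ± 0.13 (SD, n = 4) in control and -5.01 ± 0.32 (SD, n = 4) in irisin cells, with irisin replicate 2 below all control samples. The change of 0.25 (-0.08 to 0.58) did not pass the test (adjusted p = 0.285 in limma). Without irisin replicate 2 it was 0.38 (adjusted p = 0.0340 in limma, under 1.5-fold), and without irisin replicate 3 it was 0.13. It depended on the processing more than that of any other member. Egf was called higher with quantile normalization, by 0.59, and with cyclic loess, by 0.63, and was lower by the normexp setting chosen after seeing the data, at -0.37 with an adjusted p of 0.00306.

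Ereg and Hbegf, ligands that bind both Egfr and Erbb4, differed little between the group means. Ereg had signals of 544 to 655 on the control and 739 to 1170 on the irisin arrays, and changed by 0.01 (-0.25 to 0.28). Hbegf had signals of 1523 to 2105 and 2720 to 3278, and changed by -0.06 (-0.27 to 0.14, adjusted p = 0.683 in limma). Both intervals lie within 1.5-fold at this scaling. Without scaling and with scaling to the spike-in controls the change of Hbegf was 0.67 and 0.51, beside a median of all tested probes of 0.66 and 0.50.

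Errfi1, the inhibitor, was bright on every array. Its signal was 9767, 12328, 13178 and 13550 on the control arrays and 20309, 20263, 19172 and 20951 on the irisin arrays. The relative log2 signal was 4.69 ± 0.06 (SD, n = 4) and 4.69 ± 0.14 (SD, n = 4), a change of -0.0026 (-0.20 to 0.20, adjusted p = 0.990 in limma). The value is far within its interval on both sides of 0, and it was positive with quantile normalization (0.15), cyclic loess (0.14), no scaling (0.74) and spike-in scaling (0.57).

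For the 4 genes with 10 spots, the spread between single spots on an array can also be given. The spread between arrays given above is of means over these spots, so the 2 are not on the same footing. The spread of single spots is therefore not a share of the spread between arrays. The coefficient of variation between the spots of a probe on an array was 2.06 to 6.03% for Egfr, 1.93 to 6.75% for Erbb2, 1.67 to 8.06% for Tgfa and 1.72 to 10.5% for Egf. The median SD over the arrays was 0.05, 0.06, 0.05 and 0.12 on the log2 scale. The dimmest of these probes, Egf, thus had the widest spread between its spots.

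**Figure D4:**
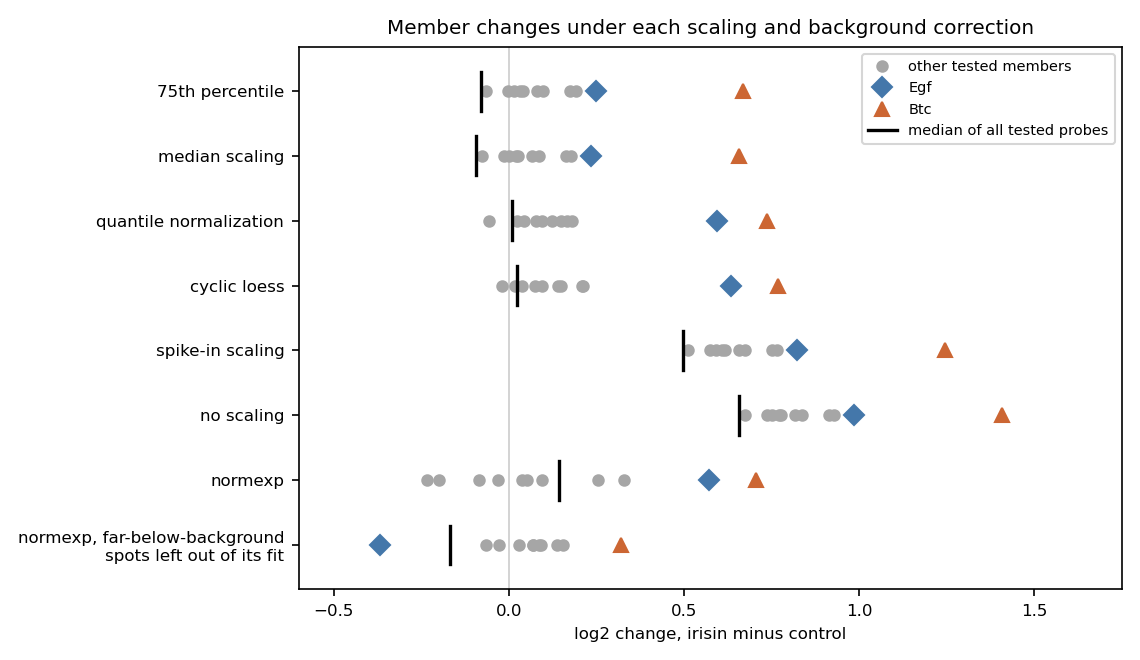
Log2 change of each tested member probe, irisin minus control, under 8 ways of scaling or background correction, with Btc as triangles, Egf as diamonds, the other members as circles and a bar for the median of all tested probes. Btc lies to the right of every other member in each row, and Egf moves from 0.25 to 0.63 with cyclic loess and to -0.37 with the added normexp setting.

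The scaling shifted the members together with all other probes. All tested probes together had a median change of 0.66 with no scaling and 0.50 with scaling to 8 spike-in probes, and in these settings 11 and 9 of the 11 member probes were called higher, where 61.9% and 32.4% of all tested probes were. With quantile normalization and cyclic loess 2 member probes, Btc and Egf, were called higher, where 2.78% and 2.9% of all tested probes were. With normexp, with the added normexp setting and at a 2-fold threshold 0 were, where 0%, 0.22% and 0.0955% of all tested probes were. Relative to that median the change of Btc was 0.75 with the 75th percentile, 0.75 with no scaling, 0.75 with spike-in probes, 0.73 with quantile normalization and 0.74 with cyclic loess. It was 0.56 with normexp and 0.49 with the added normexp setting.

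Of the other ligands of the family, Epgn was dim, with a signal of 7.40 to 16.9, and Nrg1 was bright, with 2901 to 6911. Nrg1, a ligand of Erbb3 and Erbb4, changed by -0.0017 (adjusted p = 0.993 in limma). Both probes of Nrg4, a ligand of Erbb4, changed by 0.01 and 0.02. Nrg2 and Nrg3 did not stand well above background on any array. Nrg1 and Nrg4 were therefore measured in cells in which neither Erbb3 nor Erbb4 was well above background.

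The wider pathway was described by a list of 52 genes, with the brightest probe for each gene. The list includes the 6 further family genes just given (Erbb4, Epgn and the neuregulins). Its other genes are for ligand release, adaptors, receptor downregulation, ERK feedback and early response. Of the 52 genes 47 were tested, 1 was called higher and 0 lower, where 0.531% and 10.2% of 14308 tested genes were. Lower calls among all tested probes were most frequent in bins 1 to 3 from the dim end, and most genes of the list lay in brighter bins. The median change of the list was -0.01 and that of all tested genes -0.06. Myc, a transcription factor induced by growth factors, was the gene called higher, with a change of 0.63 ± 0.08 (SE) and an adjusted p of 3.62e-04 in limma. Its relative log2 signal was 2.48 ± 0.12 (SD, n = 4) in control and 3.12 ± 0.03 (SD, n = 4) in irisin cells. The other 12 early response genes, among them Egr1 (-0.12), Fos (0.12), Fosl1 (0.03), Phlda1 (0.05) and Ccnd1 (-0.04), were not called.

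A further 6 genes of the list had an adjusted p under 0.05 with a change under 1.5-fold, 2 above and 4 below 0. By adjusted p alone 2.96% of all tested probes were higher and 21.6% lower, and the list counted 3 and 4. The list also counted 4 lower genes without the filter on dim probes and 1 with median scaling, where 32.3% and 12.1% of all probes were lower. Sos1, the exchange factor that activates RAS, was not well above background on any control array (signals 3.28 to 4.67) and was on all 4 irisin arrays (6.88 to 11.8). It entered the test only through the irisin group, so its fitted change of 0.53 (adjusted p = 0.0248 in limma) rests on a control level that was not well measured. Its place among the genes above 0 rests on that filter too and is no support. Each control signal below the lowest signal well above background on its array was then raised to that lowest signal. With these values the difference was 1.18-fold. The lowest signal of an array belongs to other probes, so the value is a guide and not a strict bound. Socs5, which promotes loss of Egfr, changed by 0.33. Adam17, the metalloprotease that releases Tgfa, Areg and Hbegf, changed by -0.50, with -0.44 at its other probe. Lrig1, which promotes breakdown of the receptors, changed by -0.56, but its other probe changed by -0.04. Spry2 and Spry4, feedback inhibitors of ERK signaling, changed by -0.44 and -0.58. Sos1, Spry2 and Spry4 were dim. When the tested probes were put in 10 equal bins by signal, these genes fell in the 2 dimmest bins, in which the median changes were -0.51 and -0.33. The brighter probe of Adam17 fell in bin 3 from the dim end. In that bin the median change was -0.15 and 19.6% of probes were called lower.

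**Figure D5:**
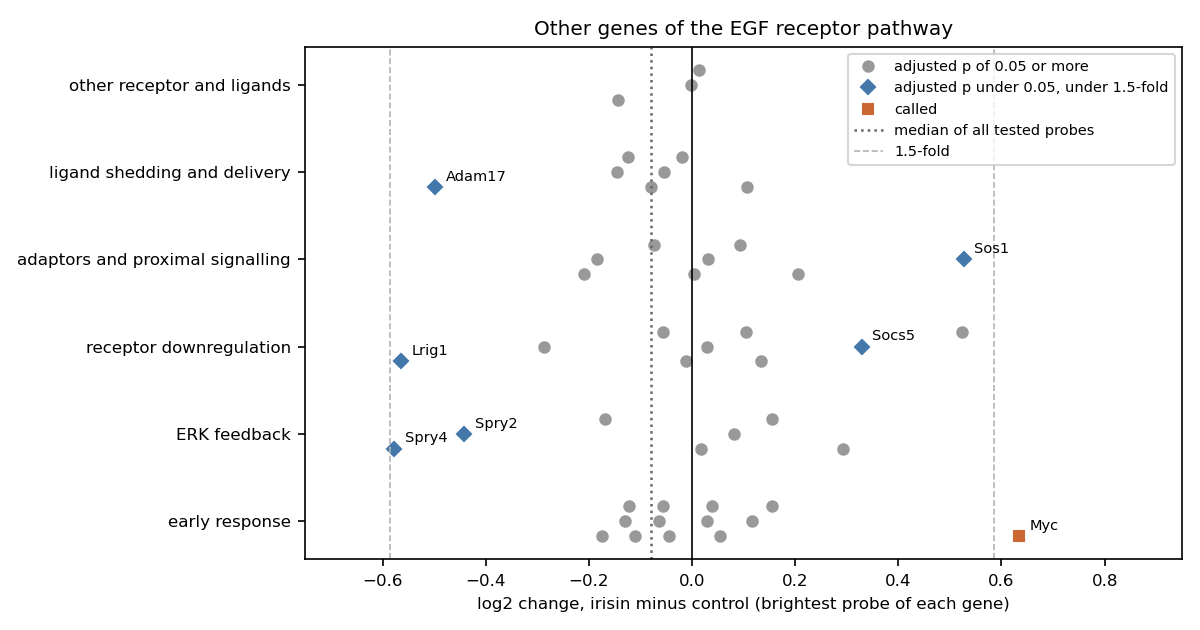
Log2 change, irisin minus control, of the 47 tested genes of the pathway list by their role, with a square for the gene called, diamonds for genes with an adjusted p under 0.05 and a change under 1.5-fold, circles for the others, and dashed lines at 1.5-fold. Myc at 0.63 is the single gene beyond the dashed lines, and Sos1 at 0.53 was not well above background on the control arrays.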

How the data were processed

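Gene expression was measured in 8 samples of AML12 cells, 4 control and 4 irisin, grouped by their deposited labels. The labels do not say whether the samples were separate cultures, so p-values measure only the spread between these samples, which may be technical. The authors hybridized Cy3-labeled RNA to Agilent arrays and read the scans in Feature Extraction 12.0.3.1, per the file headers. The deposited signal intensity is linear, with background and spatial trends subtracted but no normalization across arrays, so dim values depend on the background model of that software. The deposited value table holds the mean intensity of the spots of each probe, within 0.000500%.

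Control features and outlier spots were dropped, replicate spots averaged, and the log2 intensity was expressed against the 75th percentile of each array. Probe accessions were looked up in a RefSeq gene table (GRCm38.p6). The files refer to another build, so no probe coordinates are given. The fit used limma 3.58.1 under R 4.3.3, with lmFit and eBayes, on the 24092 probes that stood well above background throughout at least 1 group, with Benjamini-Hochberg adjustment over all of them and the 1.5-fold threshold of the study's methods. Single probes also had an exact two-sided permutation test, with 70 possible assignments. Intervals are at 95%. The number of arrays limits the precision, and between 59.5% and 64.1% of probes were well above background. The fit was tested on simulated data.

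The members, the pathway and marker lists and the tests were chosen with earlier results of these data known. The lists come from general knowledge. The text names every member, Erbb4, Epgn and the neuregulins, every called gene of the pathway list, the 3 genes closest in pattern to Egfr and to Btc, and the marker lists. Other genes of the pathway list were named after their values were seen. Alternatives were other scalings (median, quantile normalization, cyclic loess, 8 spike-in probes, none), normexp with offset 50, the value table, marked spots kept, 2 other filters, an intensity trend with robust eBayes, the methods' test, the replicate number as a block, other thresholds, any probe of a gene in place of the brightest, and each array left out. Normexp used the median spot signal, the raw column the files hold. Normexp fitted without spots more than 30 below their local background was added after seeing the data. Python 3.11.15 with pandas 2.3.3, scipy 1.17.1 and matplotlib 3.10.9 was used for the other steps.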

Additional observations from a re-analysis of the deposited data

Results flagged for a closer look

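Of 24 sets of 4 arrays, 1 held an array far from the rest, where chance alone marks about 1 in 20. For Egfr probe A_55_P1956862, irisin replicate 3 had a relative log2 signal of 0.0156, where the other irisin arrays had 0.12 to 0.13. The gap was 0.849 of the whole range, above Dixon's critical value at 95%. The other 2 Egfr probes held no such array, and the change of this probe stayed uncalled with each array left out, from -0.0099 to 0.11.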

How the results depend on the processing

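Btc was called higher in 19 of 22 alternatives at 1.5-fold, and was not called at 2-fold. The exceptions at 1.5-fold were normexp (0.70, adjusted p = 0.212 in limma), normexp fitted without spots far below background (0.32, 0.0344) and the fit without irisin replicate 3 (0.54, 0.0172). The 19 include no scaling and spike-in scaling, where 61.9% and 32.4% of all tested probes were called higher. They also include the value table and marked spots kept, which gave Btc the same change of 0.67. For Btc, the count is thus not one of independent checks. With each array left out its change was 0.54 to 0.81. The count of member probes called higher (1) was 0 at 2-fold and in both normexp settings, 2 with quantile normalization and cyclic loess, 9 with spike-in scaling, 11 with no scaling, and 0 to 1 with each array left out. No member was called lower in any alternative. The pathway list count called higher (1) was 0 at 2-fold and with normexp, 3 by adjusted p alone, 4 with quantile normalization and cyclic loess, 21 with spike-in scaling, 38 with no scaling, and 1 to 2 with each array left out (2 without control replicate 1, control replicate 2 or irisin replicate 2). The count called lower (0) was 4 by adjusted p alone and with no filter on dim probes, 1 with median scaling, and 0 to 1 with each array left out (0 without control replicate 4 and irisin replicate 4). Reversed signs were Egfr A_52_P106259 with normexp (-0.20), Egfr A_55_P1956862 without control replicate 1 (-0.0099, and 0.11 at most with another array left out), Egf with the added normexp (-0.37), Ereg with normexp (-0.031) and the added normexp (-0.028) and from -0.048 to 0.094 with each array left out, Hbegf with spike-in scaling (0.51) and no scaling (0.67), and Errfi1 with quantile normalization (0.15), cyclic loess (0.14), the added normexp (0.15), spike-in scaling (0.57), no scaling (0.74) and from -0.070 to 0.036 with each array left out. The cause was not tested.

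Samples with the same replicate number did not deviate together, with correlations of -0.35 to 0.17, so the numbers were not taken to pair them. With the replicate number as a block the change of Btc was 0.67 (adjusted p = 0.0153 in limma), and 1 member probe was called higher. Slide and scan lie with the groups and could not be fitted.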
